A study of Mus musculus with 9 samples.

Results

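The 3 libraries of the third sort of splenic dendritic cells (DC) were compared with the 6 libraries of sorts 1 and 2; the column names date each sort separately. The members were chosen by the sort number and date in the labels, which gave 3 of 9 libraries, 1 each of cDC1, cDC2 and pDC. RNA came from spleens of unstimulated C57BL/6J mice, which were 6 to 12 weeks old by the study's methods, and each library came from a pool of 15 to 17 mice. All 9 libraries share the strain, the tissue and the steady state, and no group carries a treatment or an altered allele. By the study's methods, spleens were digested with collagenase and DNase at room temperature, light density cells were kept, cells bearing T cell, B cell, granulocyte and erythroid markers were depleted with antibodies, and DC were then sorted by flow cytometry. The cDC1 are conventional DC with CD8 on their surface, the cDC2 are conventional DC without it, and the pDC are plasmacytoid DC. The comparison asks which genes differ with the sort in every subset and which differ in 1 subset alone. Digestion, sorting time, RNA yield and sequencing run are not given sort by sort in the sources used here, so handling, mouse pool and library preparation cannot be told apart.

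As background, immediate-early genes are transcription factor genes such as Fos, Jun, Egr1 and Atf3 that a stimulus switches on within minutes, without new protein synthesis. Feedback inhibitors follow them, among them the phosphatase DUSP1 and the mRNA decay factor ZFP36, which shut the signal off again. Tissue digestion, warming and sorting are known to induce these genes in many freshly isolated cells, and their messages are short-lived.

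Counts on genes summed to between 15806597 and 32453789 per library, and the sort 3 library had the lowest total in every subset. Levels are CPM, counts divided by the library total and scaled with edgeR's TMM factors. A floor of 3 counts corresponds to 0.0924 to 0.190 CPM, and floors cover counting error only. With every library thinned to the smallest total, 13466 to 14886 genes had a count in the sort 3 libraries and 16316 to 16997 in the others. The subset markers followed the labels in the 3 sorts, with Cd8a at 1680 CPM in the sort 3 cDC1, Itgam (CD11b) at 221 in cDC2 and Siglech at 4330 in pDC. The lists of cDC1, cDC2 and pDC identity genes, each with 13 genes tested, had 0, 0 and 0 genes higher and 0, 1 and 1 genes lower in sort 3. The single lower genes are 7.69% of their lists, where 10.8% of all genes tested were higher and 12.4% lower. Lists of 13 genes are short for a comparison with these shares. Xist stood at 86.0 to 246 CPM in the 9 libraries, and the Y-linked genes Ddx3y, Eif2s3y, Kdm5d and Uty had 0 counts in each, which allows levels up to the floor.

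Sort 3 stood apart from the other sorts in every subset. Across the subsets, 3206 of 13819 genes tested (23.2%) passed an adjusted p of 0.05 for sort 3 against sorts 1 and 2, with the subset in the model (edgeR quasi-likelihood test, p-values adjusted by Benjamini-Hochberg). Of these, 1490 were higher in sort 3 (10.8% of genes tested) and 1716 were lower (12.4%). Taking off each library's trend over GC content and transcript length turned the split to 1822 higher and 1378 lower. Higher genes also outnumbered lower ones with upper quartile factors (1860 and 1528) and DESeq2 size factors (1776 and 1582). The same held for DESeq2 (2090 and 1906) and for at least 10 counts in every library (1853 and 1663). Lower genes stayed more numerous with, among others, library size only (1188 and 1900), no filter (1464 and 2166) and limma-voom (1681 and 1746). Sort 2 against sort 1 gave 0 calls (0%) in the same kind of edgeR fit, with 983 genes at an unadjusted p under 0.05. For that pair of sorts DESeq2 gave 141 calls and limma-voom 144, where they gave 3996 and 3427 for sort 3. After subset means were removed, the first principal component held 53.4% of the variance. The libraries of sort 3 lay at 24.6 (cDC1), 23.5 (cDC2) and 41.4 (pDC) on it, with the other 6 between -26.4 and -8.09. Removing the means makes the 3 scores of a subset sum to 0, so the opposite signs are partly fixed. Sort 1 lay between the other sorts in each subset, at -8.738, -8.09 and -15.02, with sort 2 at -15.85, -15.45 and -26.41. The p-values measure the spread between libraries and not between mouse pools, because the libraries of a sort, which share a number and a date, are taken to come from 1 pool of mice. Over the 3 sorts themselves, the smallest p a permutation test can give is 0.333. With the counts summed per sort, 1662 genes passed with 1 residual degree of freedom, and without all libraries of sort 1 or of sort 2, 1634 and 1302 passed. The number of higher genes fell to 923 without cDC2 of sort 2, to 945 without cDC1 of sort 3 and to 992 without cDC1 of sort 2.

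Most called genes moved the same way in each subset, which the fit itself favours. It has a common sort 3 term, and disagreement between subsets counts as spread in it, so this agreement is not a separate result. A gene was taken as shifted in all 3 subsets when it passed the test and its sort 3 CPM lay outside both other sorts, in the same direction, in cDC1, cDC2 and pDC. For genes named by this rule, sort 3 is the highest or the lowest library of each subset by definition. This held for 3095 genes (22.4% of genes tested), of which 1441 were higher (10.4%) and 1654 lower (12%). Called or not, 5069 genes (36.7%) lay outside the other sorts in the same direction in the 3 subsets, 2397 above (17.3%) and 2672 below (19.3%). Within a single subset, sort 3 differed from sorts 1 and 2 in 1615 genes in cDC1 (11.7%), 1876 in cDC2 (13.6%) and 4024 in pDC (29.1%). In cDC1, 675 were higher (4.88%) and 940 lower (6.8%), in cDC2 695 (5.03%) and 1181 (8.55%), and in pDC 1700 (12.3%) and 2324 (16.8%). Within each of the subsets and in the same direction, 371 genes passed (2.68%), 144 higher (1.04%) and 227 lower (1.64%). The lone sort 3 library is there assumed to vary as the other sorts do, whereas pairs with sort 3 had a wider spread. The cDC1 count was 3 without cDC1 of sort 1, 0 without cDC1 of sort 2, 569 without cDC2 of sort 1 and 370 without cDC2 of sort 2. Without any 1 of those 4 libraries the cDC2 count was 0, and the pDC count lay between 2997 and 3758 whichever library of sorts 1 and 2 was left out.

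**Figure D1:**
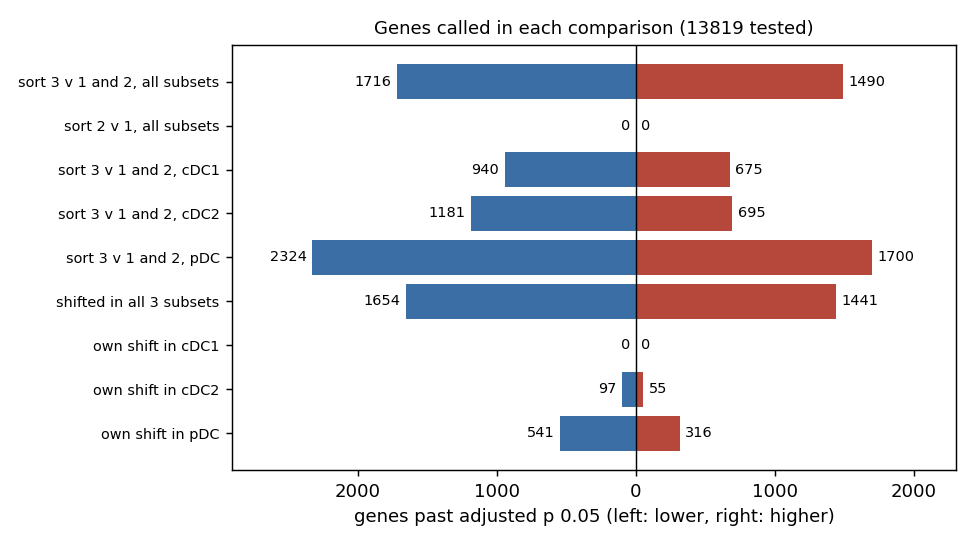
Number of genes past an adjusted p of 0.05 in each comparison, with bars to the right for genes higher and bars to the left for genes lower (sort 3 minus sorts 1 and 2, or sort 2 minus sort 1). Sort 3 gave 1490 and 1716 genes against 0 and 0 for sort 2 against sort 1, and own shift marks genes called within 1 subset and called against the mean shift of the other subsets.

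Immediate-early transcription factor genes rose in sort 3. Of 24 tested, 16 rose and 0 fell, against 10.8% and 12.4% of all genes, and the same 16 had shifted in all 3 subsets. The median log2 difference of the list was 1.07, against -0.01 for all genes tested, and the median of the list for sort 2 minus sort 1 was -0.14. Summed over the list, levels were 6543, 5962 and 6105 CPM in cDC1, cDC2 and pDC of sort 3 and 2281 to 3419 CPM in the 6 other libraries. The groups did not overlap.

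Atf3, a stress-induced member of the ATF/CREB family, had the largest rise of the list. It stood at 48.5, 33.6 and 198 CPM in cDC1 of sorts 1, 2 and 3, at 63.6, 49.4 and 161 in cDC2, and at 2.15, 0.558 and 14.6 in pDC. Sort 3 was the highest library in every subset, and Atf3 was far lower in pDC than in the conventional DC throughout. The difference was 2.21 ± 0.29 (log2, SE), or 4.64-fold (adjusted p = 0.00124, edgeR quasi-likelihood test, Benjamini-Hochberg adjusted). Fos, a partner in the AP-1 dimer, was at 945, 463 and 1920 CPM in cDC1, 728, 648 and 1430 in cDC2, and 410, 344 and 1210 in pDC. Sort 1 lay above sort 2 in each subset for Fos, and sort 3 above both, by 1.40 ± 0.19. Egr1, a zinc finger factor induced by growth factor signalling, was at 111, 82.2 and 283 CPM in cDC1, 186, 216 and 460 in cDC2, and 11, 13.7 and 64.3 in pDC. Its log2 difference was 1.70 ± 0.19, with the values of sorts 1 and 2 close to each other and sort 3 apart. Klf2, a Krüppel-like factor that holds leukocytes quiescent, rose by 1.58 ± 0.17, from 36.4 to 81.9 CPM in sorts 1 and 2 to 115 to 291 CPM in sort 3. Egr2, a relative of Egr1, rose by 1.42 ± 0.22, with 0.760 to 6.09 CPM in sorts 1 and 2 and 1.41 to 20.5 CPM in sort 3, ranges that overlap across subsets but not within any. The other genes that rose were Fosb, Jun, Junb, Jund, Ier2, Ier3, Ier5, Btg2, Klf6, Maff and Csrnp1, by 0.68 to 1.41. The list was not uniform. The orphan receptor genes Nr4a1, Nr4a2 and Nr4a3 had differences of 0.31, 0.36 and 0.28 that did not pass, and the growth regulator Myc had 0.04. Plk2, a kinase gene also known to be induced early, was at 3.75, 2.09 and 6.16 CPM in cDC1, 3.57, 2.87 and 9.46 in cDC2, and 0.484, 0.811 and 4.83 in pDC, a rise of 1.84 ± 0.36.

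**Figure D2:**
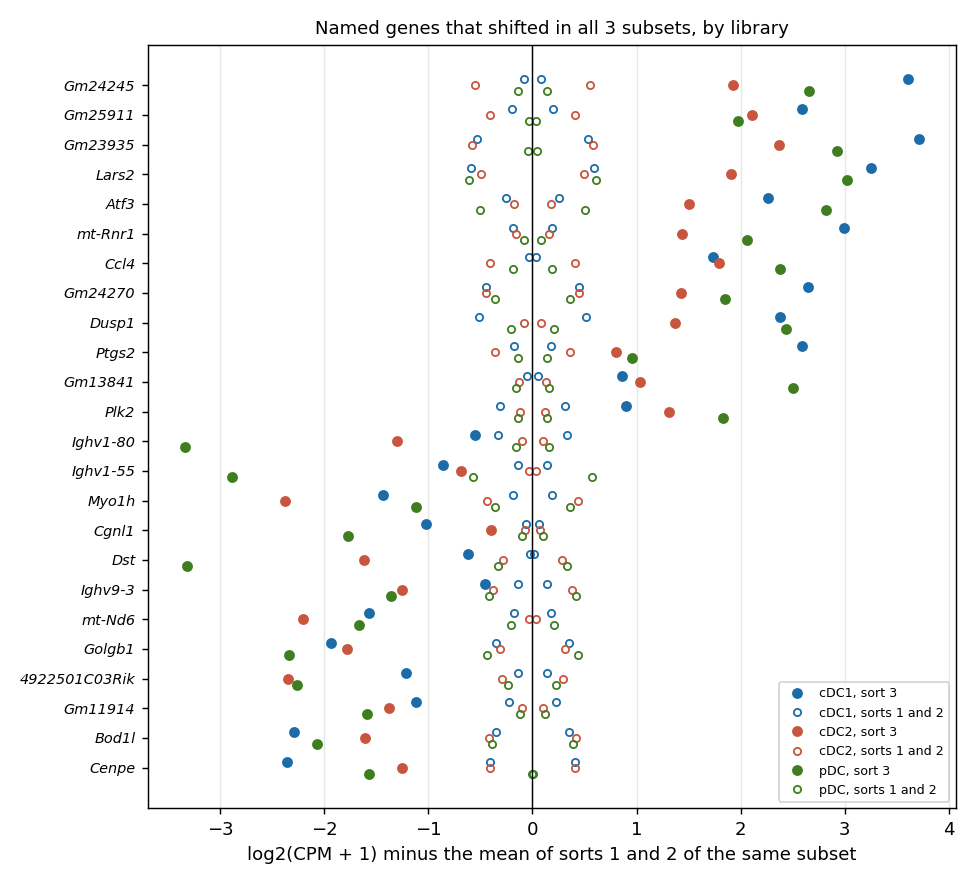
Level of the 24 named genes that shifted in all 3 subsets, as log2(CPM + 1) minus the mean of sorts 1 and 2 of the same subset, with filled points for sort 3 and open points for sorts 1 and 2. By the rule that chose these genes, the 3 filled points lie on 1 side of the open points of their own colour. For Atf3 and Dusp1 the filled points lie above 1.

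Feedback inhibitors of signalling rose as well. Of 23 tested, 10 rose (43.5%) and 0 fell, against 10.8% and 12.4% of all genes. The median log2 difference was 0.67, or 0.46 without the libraries of sort 1. Dusp1, which encodes a nuclear phosphatase that switches off MAP kinases, was at 174, 85.1 and 637 CPM in cDC1 of sorts 1, 2 and 3, 199, 178 and 488 in cDC2, and 41.1, 30.7 and 197 in pDC. Sort 3 was above the other sorts in every subset, by 2.06 ± 0.23 (log2, SE) or 4.17-fold (adjusted p = 0.000817, edgeR quasi-likelihood test, Benjamini-Hochberg adjusted). Rgs1, which damps chemokine receptor signalling, rose by 1.48 ± 0.25, from 12 and 13.4 to 65.3 CPM in pDC and from 129 and 163 to 271 in cDC2. Socs3, an inhibitor of cytokine receptor signalling, rose by 1.20 ± 0.26, from 2.62 and 2.34 to 9.82 CPM in cDC1 and from 8.96 and 6.37 to 9.94 in cDC2. Zfp36, whose product removes AU-rich mRNA, rose 2.21-fold and stood at 1060, 1370 and 877 CPM in cDC1, cDC2 and pDC of sort 3, against 281 to 817 CPM in the other libraries. The stress- and damage-inducible genes Gadd45a, Gadd45b and Gadd45g had differences of 0.35, -0.03 and 0.14 and did not pass.

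The promoter of Dusp1 is shown because this gene had the largest rise among the feedback inhibitors. The window of 300 bases around its start is taken from RefSeq on GRCm38.p6, minus strand, at chr17:26508423-26508722, and the capitals mark a cAMP response element, TGACGTCA, the site that CREB and ATF proteins bind.

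Dusp1: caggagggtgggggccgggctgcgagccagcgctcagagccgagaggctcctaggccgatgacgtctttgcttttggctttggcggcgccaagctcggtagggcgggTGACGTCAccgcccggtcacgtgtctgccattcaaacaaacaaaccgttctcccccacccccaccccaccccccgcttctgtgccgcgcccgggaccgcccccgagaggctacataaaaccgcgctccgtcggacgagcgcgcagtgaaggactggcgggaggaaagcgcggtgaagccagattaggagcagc

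The element reads the same on both strands. It was found in 2 of 20 feedback inhibitor promoters (10%), in 1 of 20 immediate-early promoters (5%), and in 507 of 27025 RefSeq promoters of the same length (1.88%). The heat-shock element GAANNTTC, which also reads the same on both strands, was found in 9 of 18 promoters of heat-shock and chaperone genes (50%), in 2 of 20 immediate-early promoters (10%), in 1 of 20 feedback inhibitor promoters (5%) and in 2149 of all promoters (7.95%). The CArG box, bound by serum response factor, was found in 0 immediate-early promoters and in 2 feedback inhibitor promoters (10%), against 1.57% of all, and the letters TATAAA, on either strand, in 3 (15%) and 6 (30%), against 14.2% of all. These are counts of letters and not of bound sites.

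Among inflammatory cytokine and chemokine genes, 5 of 15 tested rose (33.3%) and 0 fell, against 10.8% and 12.4% of all genes. The median was 0.63, or 0.26 with counts thinned to the smallest total. Summed over the list, sort 3 levels were 0.97, 1.08 and 2.46 times the mean of sorts 1 and 2 in cDC1, cDC2 and pDC. Ccl4, a chemokine that draws T cells and NK cells, had the largest rise of the list. Its levels were 3.02, 2.84 and 12.1 CPM in cDC1 of sorts 1, 2 and 3, 7.01, 13.1 and 35.7 in cDC2, and 11.8, 15.5 and 74.4 in pDC. The sort 3 library was above the others in each subset, by 2.12 ± 0.20 (log2, SE). Ptgs2, which encodes the prostaglandin synthase COX-2, rose by 2.01 ± 0.43, from 2.15 and 1.46 to 15.7 CPM in cDC1, from 20.5 and 34.4 to 47.1 in cDC2 and from 0.333 and 0.101 to 1.35 in pDC. Osm (oncostatin M) rose by 1.71 ± 0.34, the chemokine gene Ccl3 by 1.19 ± 0.23 and the cytokine gene Tnf by 1.14 ± 0.13. Il1b, Ccl5, Ccl22 and Cxcl9 did not pass, with differences of 0.14, 0.14, -0.27 and 0.10. Maturation genes of DC had 1 of 21 higher (Rel, 0.26) and 2 lower (Nfkb1 and Nfkb2, each -0.30), all of them NF-kB subunits. The costimulator gene Cd86 stood at 481, 498 and 501 CPM in cDC1, 120, 122 and 122 in cDC2, and 15.7, 10.5 and 13.8 in pDC. Rel had an adjusted p of 0.0498 by edgeR's quasi-likelihood test, and 0.0570 with the replicate block.

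Heat-shock and chaperone genes went in both directions. Of 22 tested, 6 rose (27.3%) and 4 fell (18.2%), against 10.8% and 12.4% of all genes. The median was 0.02 (-0.02 with library size only and 0.09 without the libraries of sort 2). Hspa1b, the stress-inducible HSP70, was at 274, 257 and 501 CPM in cDC1 of sorts 1, 2 and 3, 379, 546 and 768 in cDC2, and 37.7, 75.3 and 82.4 in pDC. Its rise of 0.74 ± 0.19 put sort 3 highest in each subset, but close to sort 2 in pDC. Hspa1a, its near-identical neighbour, had 0.53 and did not pass, and reads may be split between the genes. Dnajb4, an HSP40 cochaperone, rose by 1.01 ± 0.16, Hsph1 by 0.73, Dnaja1 by 0.64, Bag3 by 0.54 and the constitutive HSP70 gene Hspa8 by 0.21. The cytosolic chaperone gene Hsp90ab1 fell by 0.39, from 1900 to 2700 CPM in sorts 1 and 2 to 1490 to 1880 CPM in sort 3, and Hspa4l fell by 0.78 and Hspe1 by 0.27. Hspb1, the small chaperone HSP27, had 18, 23 and 2 counts in cDC1, 16, 36 and 0 in cDC2, and 7, 11 and 0 in pDC. Against a floor of 3 counts per library, it was at least 5.44-fold lower in cDC2 and at least 2.19-fold lower in pDC of sort 3.

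Genes of the integrated stress and unfolded protein response gave 6 higher (30%) and 2 lower (10%) of 20 tested, against 10.8% and 12.4% of all genes. Of the 6 higher genes, 4 had shifted in all 3 subsets. The median was 0.21, and the median shifts within cDC1, cDC2 and pDC were 0.32, -0.006 and 0.13. Dnajb9, an endoplasmic reticulum cochaperone, rose by 0.95 ± 0.08 (log2, SE; adjusted p = 0.000443, edgeR quasi-likelihood test, Benjamini-Hochberg adjusted). It was at 32.9, 33.8 and 71.1 CPM in cDC1 of sorts 1, 2 and 3, 21.5, 25.2 and 39.6 in cDC2, and 68.1, 69.7 and 135 in pDC. Sorts 1 and 2 were close to each other and sort 3 stood above them in every subset. Edem1 rose by 0.45 and Herpud1 by 0.28, both of which serve the disposal of misfolded proteins, and the serine synthesis gene Phgdh rose by 0.63. Hsp90b1, the chaperone GRP94, fell by 0.53 ± 0.07, from 1350 and 1450 to 903 CPM in cDC1, and the transcription factor gene Atf5 fell by 1.06. The main reticulum chaperone gene Hspa5 had -0.05, and the stress factors Atf4 and Ddit3 had -0.03 and -0.37, none of which passed.

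Interferon-stimulated genes gave 12 higher (48%) and 2 lower (8%) of 25, against 10.8% and 12.4% of all genes. Of the 12 higher genes, 10 had shifted in all 3 subsets. The median was 0.40, and the median shifts within cDC1, cDC2 and pDC were 0.12, 0.42 and 0.39. Oas1a, a sensor of double-stranded RNA, was at 5.50, 4.67 and 10.8 CPM in cDC1 of sorts 1, 2 and 3, 68.2, 62.9 and 104 in cDC2, and 11, 11.2 and 19.5 in pDC. Sort 3 was the highest in each subset, by 0.84 ± 0.10. Isg15, a ubiquitin-like modifier, rose by 0.79 ± 0.09 and Irf7, the factor that drives interferon production in pDC, by 0.56. Stat2, which carries the interferon signal to the nucleus, fell by 0.66, and Parp14 fell by 0.62. Rsad2 (viperin) was at 13.1, 14.3 and 46.4 CPM in pDC and 27.4, 27.3 and 50.6 in cDC2, with 5.68, 4.55 and 4.27 in cDC1. Its sort 3 library was high in pDC and cDC2 and the lowest in cDC1. The shift of Rsad2 in pDC was larger than the mean shift of the other subsets by 1.45 (log2, adjusted p = 0.0232, edgeR quasi-likelihood test).

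Cholesterol synthesis and uptake genes gave 5 higher (27.8%) and 0 lower of 18, against 10.8% and 12.4% of all genes, led by the isomerase gene Idi1 with 1.02 ± 0.14. Splicing factors of the SR family gave 5 higher (31.2%) and 2 lower (12.5%) of 16. Srsf2, Srsf3 and Tra2b rose by 0.63, 0.57 and 0.64 and Srsf11 fell by 0.64, each in all 3 subsets. Hypoxia-responsive genes gave 2 higher (the glycolytic genes Pgk1 and Ldha) and 1 lower (the demethylase gene Kdm3a) of 20. Oxidative stress genes gave 2 higher (Prdx1 and Slc48a1) and 1 lower (Txnrd1) of 14, and p53 targets 1 higher (Ccng1) and 0 lower of 13. Clock genes gave 2 higher (Bhlhe40 and Nfil3) and 1 lower (Clock) of 16, and glucocorticoid-responsive genes 1 higher (Sgk1) and 1 lower (Ddit4, adjusted p = 0.0499, edgeR quasi-likelihood test) of 15. Ribosomal protein genes gave 11 higher and 13 lower of 84, with a median of -0.04, and replication-dependent histone genes 0 and 1 (Hist2h2ac) of 23. The median shifts of the histone genes within cDC1, cDC2 and pDC were 0.23, 0.10 and -3.44, and many had 0 counts in the sort 3 pDC library. Summed over all 70 listed, sort 3 levels in these subsets were 1.15, 1.04 and 1.07 times the mean of sorts 1 and 2. The cold-inducible RNA-binding protein genes Cirbp and Rbm3 had -0.31 and -0.07 and did not pass. Nnt, which is mutated in C57BL/6J, had counts in every library and rose by 0.41, and of 5 sex-linked genes tested 1 fell, the X-linked demethylase gene Kdm5c, by 0.37.

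**Figure D3:**
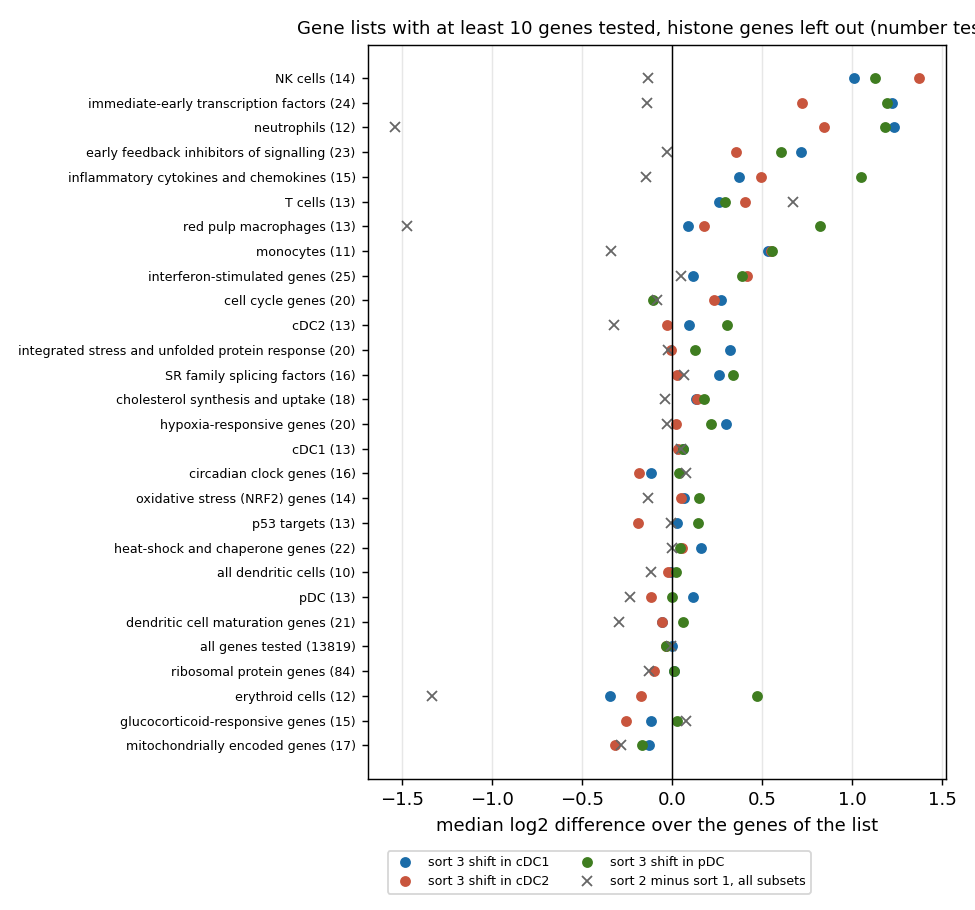
Median log2 difference of each gene list with at least 10 genes tested, with filled points for the shift of sort 3 in each subset and crosses for sort 2 minus sort 1 over the subsets. Histone genes are left out because many had 0 counts in the sort 3 pDC library. For immediate-early genes the 3 filled points lie at 0.72 to 1.22 with the cross at -0.14, whereas for neutrophils the cross lies at -1.54.

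Very short annotated genes were among those with the largest rises. Gm24245, Gm25911, Gm23935 and Gm24270, which the deposited table lists as miRNA genes, had counts from 6 to 28613. Their sequences are shown because 3 of the 4 are identical. They are read from the GRCm38 genome. The genes lie at chr4:139338304-139338360 on the plus strand (Gm24245), chr1:167340369-167340424 on the minus strand (Gm25911), chr16:11144125-11144181 on the plus strand (Gm23935) and chr9:56223715-56223771 on the minus strand (Gm24270). Capitals mark a stretch of 23 bases that all 4 share.
Gm24245: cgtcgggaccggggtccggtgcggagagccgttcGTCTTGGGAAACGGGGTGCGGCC
Gm25911: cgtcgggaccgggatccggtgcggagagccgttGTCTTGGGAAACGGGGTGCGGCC
Gm23935: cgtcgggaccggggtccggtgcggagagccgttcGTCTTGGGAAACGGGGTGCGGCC
Gm24270: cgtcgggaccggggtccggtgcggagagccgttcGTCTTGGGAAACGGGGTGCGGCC

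Gm23935 was at 187, 88.7 and 1700 CPM in cDC1 of sorts 1, 2 and 3, 196, 442 and 1520 in cDC2, and 130, 122 and 962 in pDC. Sort 3 was several times higher in every subset, by 2.97 ± 0.31 (log2, SE) or 7.84-fold (adjusted p = 0.00066, edgeR quasi-likelihood test, Benjamini-Hochberg adjusted). Gm24245, Gm25911 and Gm24270 rose by 3.38, 3.30 and 2.12. The identical genes had unequal counts, with 25045 for Gm23935, 422 for Gm24245 and 432 for Gm24270 in the sort 3 cDC1 library, and how reads with several matches were counted is not given in the sources used here. Lars2, which encodes the mitochondrial leucyl-tRNA synthetase, was at 288, 126 and 1830 CPM in cDC1, 317, 633 and 1680 in cDC2, and 208, 88.8 and 1110 in pDC. Sort 3 was again the highest in each subset, by 2.66 ± 0.36. Gm26924, chosen after its values were seen, rose by 1.47 ± 0.29. Of its 1807 windows of 25 bases, 1220 (67.5%) match an annotated ribosomal RNA gene on the opposite strand and 0 match it on the same strand. Libraries were made from polyadenylated RNA, which holds ribosomal RNA as a remnant.

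The mitochondrial ribosomal RNAs rose, and the other mitochondrially encoded genes that were called went in both directions. The small ribosomal RNA, mt-Rnr1, was at 376, 288 and 2630 CPM in cDC1 of sorts 1, 2 and 3, 341, 272 and 824 in cDC2, and 392, 350 and 1550 in pDC. Sort 3 was the highest in each subset, by 2.20 ± 0.23 (log2, SE). The large one, mt-Rnr2, chosen after its values were seen, rose by 1.34 ± 0.15. Of 17 mitochondrially encoded genes tested, 3 rose and 3 fell (17.6% each), against 10.8% and 12.4% of all genes. Besides the ribosomal RNAs, mt-Nd1 rose, by 0.36. The median of the list was -0.24. Summed over the list, sort 3 levels were 1.24, 0.99 and 1.29 times the mean of sorts 1 and 2 in cDC1, cDC2 and pDC. The complex I gene mt-Nd6, which alone among the mitochondrial protein genes is encoded on the light strand, fell by 2.23 ± 0.23. It was at 7.14, 5.34 and 1.42 CPM in cDC1, 11, 10.4 and 1.54 in cDC2, and 21, 15.6 and 5.01 in pDC, with sort 3 lowest in each. The cytochrome b gene mt-Cytb fell by 0.24 and the threonine tRNA gene mt-Tt by 1.70. The abundant complex IV gene mt-Co1 had 0.15 and did not pass.

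Genes that fell had longer transcripts than genes that rose. The longest annotated transcript of the genes lower in sort 3 had a median of 4656 bases, against 2680 bases for those higher and 3079 for all genes tested. Among 661 genes with transcripts over 8000 bases, 263 fell (39.8%) and 19 rose (2.87%), with a median log2 difference of -0.41. Among 2332 genes of 1000 to 2000 bases, 109 fell (4.67%) and 341 rose (14.6%), with a median of 0.11. Of all genes tested, 12.4% fell and 10.8% rose. Over 8000 bases, the median shift came to -0.54 for cDC1, -0.31 for cDC2 and -0.43 for pDC. Sort 2 minus sort 1 went the other way in the same genes, with 0.14. Across 13683 genes, which share their libraries and are not independent, the rank correlation of length with the difference was -0.18 for sort 3 and 0.30 for sort 2 minus sort 1. Of the 1020 genes with over 31% A in the transcript, 22.5% fell and 7.06% rose, against 12.4% and 10.8% of all genes tested. The rank correlation of A content with the difference was -0.11 for sort 3 and 0.14 for sort 2 minus sort 1.

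**Figure D4:**
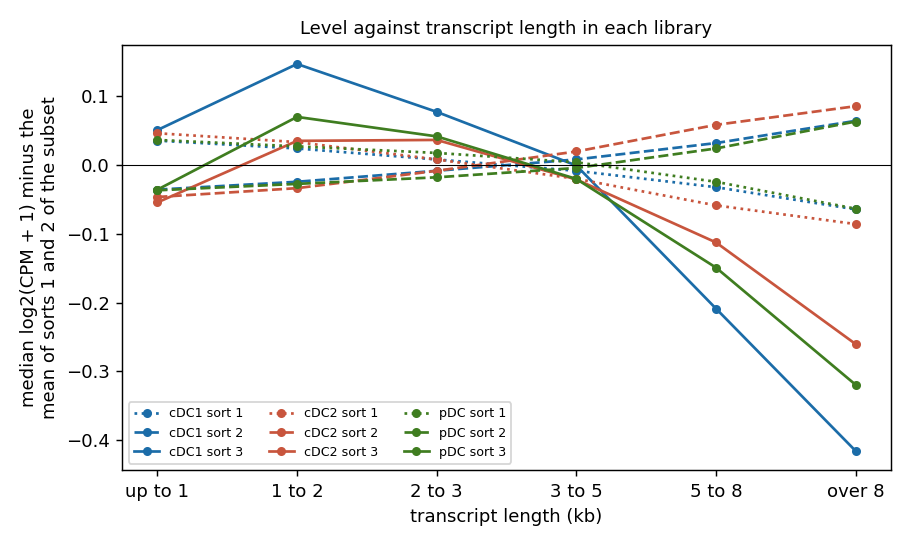
Median log2(CPM + 1) of the genes in each class of transcript length (kb, longest annotated transcript), relative to the mean of sorts 1 and 2 of the same subset, for each of the 9 libraries. The solid lines of sort 3 run downward for genes over 5 kb and reach -0.42, -0.26 and -0.32 over 8 kb in cDC1, cDC2 and pDC, while sort 2 lies above sort 1 there.

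Golgb1 (giantin, a Golgi tether), with a transcript of 11001 bases, was at 33.8, 55.4 and 10.6 CPM in cDC1 of sorts 1, 2 and 3, 24.9, 38.7 and 8.34 in cDC2, and 45.3, 83.9 and 11.4 in pDC. Sort 3 was lowest and sort 2 highest in each subset, and the difference was -2.17 ± 0.28 (log2, SE; adjusted p = 0.00118, edgeR quasi-likelihood test, Benjamini-Hochberg adjusted). Dst (dystonin, a cytoskeletal linker) has a transcript of 23279 bases, and its level was at 2.04, 1.96 and 0.948 CPM in cDC1, 6.66, 10.3 and 2.02 in cDC2, and 34.1, 54.8 and 3.42 in pDC. It was lowest in sort 3 in each subset, by 2.56 ± 0.45. Bod1l, which protects replication forks, fell by 2.12, and the uncharacterised 4922501C03Rik by 2.16. With the trend over GC content and length taken off, Golgb1, Dst and Bod1l still fell, by 1.70, 1.90 and 1.72. Golga4 and Prrc2c, chosen after their values were seen and with transcripts of 7583 and 11502 bases, fell by 1.78 and 1.69. The myosin gene Myo1h had 38, 50 and 0 counts in cDC1, 121, 225 and 5 in cDC2, and 161, 171 and 42 in pDC, which is at least 9.14-fold lower in cDC1 of sort 3. Cgnl1, a cell junction protein gene, had 0 counts in cDC1 and cDC2 of sort 3 and stood at 11.6, 13.5 and 2.95 CPM in pDC. The pseudogene Gm11914 fell by 2.15.

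Cell cycle genes gave 3 higher and 3 lower of 20 (15% each), shares near the 10.8% and 12.4% of all genes, so the called members are given as single genes. Cenpe, Mki67 and Cenpf, which act in or mark dividing cells and have transcripts of 7910, 10061 and 11130 bases, fell by 2.10, 1.74 and 1.32. Mki67, the proliferation marker, was at 118, 268 and 47.0 CPM in cDC1, 123, 223 and 71.9 in cDC2, and 11, 12.3 and 2.42 in pDC. Sort 3 was the lowest and sort 2 the highest in each subset. Tk1, Mcm2 and Pcna, which serve DNA synthesis and have transcripts of 2490, 3494 and 1518 bases, rose by 0.45, 0.32 and 0.44. Top2a, Ccnb1 and Cdk1 had -0.36, -0.34 and 0.28 and did not pass.

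Immunoglobulin transcripts, which mark B cells and plasma cells and were richest in the pDC libraries, had mostly negative differences but a share of lower calls near that of all genes. Of 126 variable segments tested, 17 fell (13.5%, against 12.4% of all genes) and 2 rose (1.59%, against 10.8%), 105 had a negative difference, and the median was -0.95. Their sum was 1010, 2000 and 979 CPM in pDC of sorts 1, 2 and 3, 56.8, 44.5 and 36.2 in cDC1, and 91.6, 112 and 63.7 in cDC2. Sort 3 was below the others in each subset, and close to sort 1 in pDC. Ighv1-80 had 389, 295 and 7 counts in pDC, 45, 51 and 1 in cDC2, and 23, 4 and 0 in cDC1. Ighv1-55 had 510, 692 and 39 counts in pDC and Ighv9-3 had 326, 362 and 79, and near-identical segments may share reads. The constant and joining chain genes summed to 613, 564 and 633 CPM in cDC1, 639, 704 and 584 in cDC2, and 4787, 7529 and 4653 in pDC, with sort 3 highest in cDC1 and lowest in the other subsets. Of 8 such genes, 2 fell, Igha by 0.79 and Igkc by 0.56, while the B cell receptor gene Cd79b rose by 0.33 as the 1 gene called of 7 B cell genes. Igha had an adjusted p of 0.0492 by edgeR's quasi-likelihood test, 0.0646 with DESeq2 and 0.0738 with limma-voom. In bulk samples, fewer cells of a type and less RNA per cell cannot be told apart.

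Of the NK cell list, 6 of 14 genes were higher (42.9%, against 10.8% of all genes) and 0 lower, with a median of 1.26. Gzma, a granule protease of killer cells, was at 6.30, 4.09 and 15.0 CPM in cDC1 of sorts 1, 2 and 3, 10, 10.6 and 40.7 in cDC2, and 9.53, 4.87 and 25.3 in pDC. Sort 3 was highest in each subset, by 1.78 ± 0.21 (log2, SE). The granule genes Gzmb and Prf1 rose by 1.94 and 1.51, the receptor genes Klra8 and Klrb1c by 1.82 and 1.40, and the transcription factor gene Eomes by 1.27. Ncr1, a defining NK receptor, was at 1.35, 1.13 and 1.49 CPM in cDC1, 2.33, 6.51 and 10.4 in cDC2, and 1.66, 0.963 and 1.89 in pDC, a difference of 0.73 that did not pass. None of the 14 genes was at 0 in every library. By the study's methods, cells were stained before sorting for CD49b, an NK cell marker, among other proteins. Summed over the list, levels ranged from 83.0 to 290 CPM in sort 3 and from 33.2 to 188 CPM in sorts 1 and 2, with overlap across subsets. The part of NK cell RNA in the rises of Ccl4, Ccl3 and the immediate-early genes was not tested.

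Monocyte genes gave 5 higher (45.5%) and 0 lower of 11, against 10.8% and 12.4% of all genes. Ly6c2 led them with 1.15 ± 0.22, at 16.6, 12.4 and 46.6 CPM in cDC1, 18.7, 10.9 and 38.0 in cDC2, and 2010, 1950 and 2710 in pDC. Ly6c2 was highest in sort 3 in each subset and is a gene that pDC express. Neutrophil genes gave 1 higher (Csf3r) and 0 lower of 12, with a median of 1.04 for sort 3 and of -1.54 for sort 2 minus sort 1. The median for sort 3 was 2.08 without the libraries of sort 1 and 0.55 without those of sort 2. The neutrophil list summed to 35.3, 10.6 and 51.0 CPM in cDC1 of sorts 1, 2 and 3, 144, 134 and 193 in cDC2, and 61.3, 8.67 and 82.7 in pDC. Ly6g, the defining marker, was at 0 to 0.319 CPM. Erythroid genes gave 1 higher (Hbb-bs, 0.64) of 12, and the T cell, red pulp macrophage, platelet, mast cell, plasma cell and stromal lists gave 0 in either direction, with 13, 13, 2, 6, 5 and 6 genes tested. The genes common to all DC gave 1 higher (the CD11c gene Itgax, 0.23) and 1 lower (the MHC class II activator gene Ciita, -0.43) of 10. The genes called in the cDC2 and pDC identity lists were Tbc1d4 with -0.25 and Pacsin1 with -0.53.

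A difference in shift among the subsets was called in 666 genes (4.82%, edgeR's quasi-likelihood test). The number was 0 with limma-voom, with at least 10 counts in every library, with thinned counts, and without any 1 library of sorts 1 and 2. Each subset had 1 library of sort 3, so a shift of the subset and the spread of that library cannot be told apart. Sample quality weights, where a lower weight marks a library that departs more from the fit, were 0.825, 0.427 and 0.277 for cDC1, cDC2 and pDC of sort 3 and 0.948 to 2.74 for the others. Against the mean shift of the other subsets, 1059 genes differed in pDC (7.66%), 263 in cDC2 (1.9%) and 0 in cDC1 (0%), where 2798 genes were at an unadjusted p under 0.05 and DESeq2 gave 56 calls. The pDC shift was the higher one in 456 genes (3.3%) and the lower one in 603 (4.36%), and the cDC2 shift in 147 (1.06%) and 116 (0.839%). Genes counted as having a shift of their own, called within the subset and in this contrast with the same sign, numbered 857 in pDC (6.2%), of which 316 were higher (2.29%) and 541 lower (3.91%). In cDC2 there were 152 (1.1%), 55 higher (0.398%) and 97 lower (0.702%), and in cDC1 0 (0%), with 16 by DESeq2. The cDC2 number was 0 without any 1 library of sorts 1 and 2. The pDC number was 0 without cDC1 or cDC2 of sort 1 or 2, 529 without pDC of sort 1 and 603 without pDC of sort 2.

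Genes with an own shift had lower counts than all genes tested. Their mean count had a median of 198 in pDC and 113 in cDC2, against 581 for all genes tested. Of the 857 in pDC, 182 had 0 counts in the sort 3 pDC library, and of the 152 in cDC2, 33 had 0 counts in the sort 3 cDC2 library. In pDC, 197 of them had a mean count up to 50, 233 up to 200, 323 up to 1000 and 104 over 1000, which is 8.89%, 11.4%, 7.3% and 2.03% of the genes tested in each class. In cDC2, 0.0974% of the genes over 1000 had an own shift. The spread between libraries was wider with sort 3. At 2 to 5 CPM, log2 ratios between sorts 1 and 2 of a subset had a median absolute deviation of 0.32 to 0.44 and those with sort 3 had 0.64 to 1.21, where counting error alone gives at most 0.27. Where at least 50 counts were expected from the other libraries, the sort 3 pDC library had 39 genes at 3 counts or fewer, 30 of them at 0, the sort 3 cDC2 library had 4, and the other 7 libraries had 0 to 2. The part of this spread in the own shifts was not tested.

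**Figure D5:**
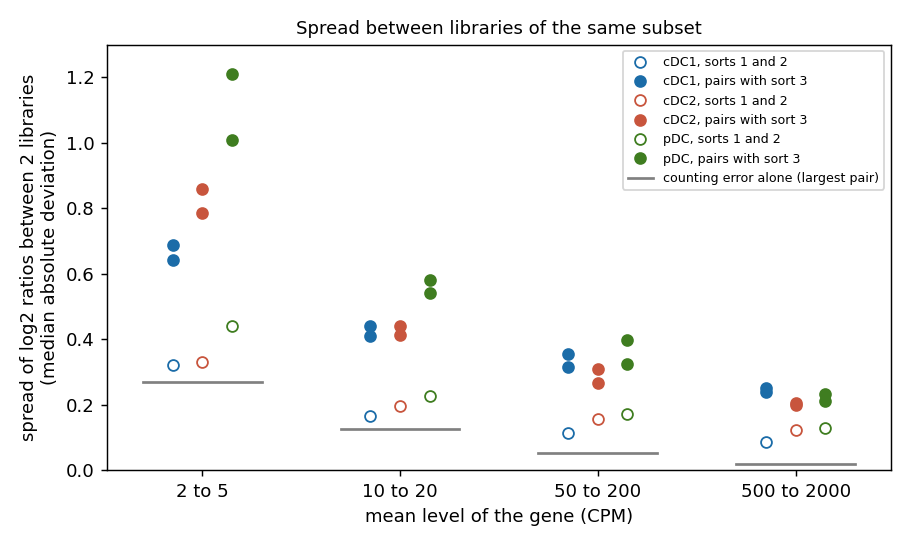
Median absolute deviation of log2 ratios between 2 libraries of the same subset, for genes in 4 classes of mean CPM, with filled points for pairs that include sort 3, open points for sorts 1 and 2, and a line for the largest deviation that counting error gives. Pairs with sort 3 lie at 0.64 to 1.21 at 2 to 5 CPM and at 0.20 to 0.25 at 500 to 2000 CPM, above sorts 1 and 2 in each class.

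In pDC, the largest own falls were genes with 0 counts in 1 library. Tbc1d25, a regulator of autophagosome fusion, had 249, 127 and 0 counts in pDC of sorts 1, 2 and 3, 156, 145 and 95 in cDC1, and 230, 255 and 159 in cDC2. It was at least 39.8-fold lower in the sort 3 pDC library, while the conventional DC lay between 5.68 and 8.93 CPM in all sorts. D3Ertd254e had 144, 135 and 0 counts in pDC, the lens filament gene Bfsp2 had 182, 96 and 0, and the noncoding Gm20204 had 131, 111 and 0, which is at least 31.9-fold, 29.6-fold and 27.3-fold lower. Own rises in pDC were of similar counts. The noncoding Gm21781 had 14, 4 and 138 counts, the pseudogene Gm13841 had 38, 33 and 214, the serpin gene Serpina3f had 56, 19 and 193, and the kinase gene Cit had 34, 8 and 107. Gm13841 had also shifted in the other subsets, from 2.37 and 2.13 to 4.88 CPM in cDC1, and 60 of the 857 genes were among those shifted in all 3 subsets.

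In cDC2, the mitochondrial carrier gene Slc25a29 had 172, 80 and 0 counts in sorts 1, 2 and 3, at least 25.4-fold lower, against 106, 69 and 36 in cDC1 and 169, 106 and 126 in pDC. The noncoding Ftx, a neighbour of Xist, had 102, 132 and 5 counts in cDC2 and stood at 65.0, 64.3 and 72.9 CPM in pDC. Ttll1 fell to 11 counts and Zfp521 to 14 counts in the sort 3 cDC2 library, and the rises of Tg, 1810034E14Rik, Fads2 and Hook2 rested on 121 to 233 counts there. Tg rose from 1.66 and 1.96 to 6.43 CPM in cDC2. It also rose in cDC1, from 2.77 and 2.84 to 5.49 CPM, and fell in pDC, from 4.69 and 5.78 to 2.18 CPM. The pDC fall enters the mean shift with which the cDC2 shift of Tg was compared. Fads2, a fatty acid desaturase gene, stood at 2.52, 2.49 and 7.02 CPM in cDC2, 6.08, 5.67 and 8.33 in cDC1, and 114, 122 and 153 in pDC. Sort 3 was the highest in each subset, and the cDC2 shift was larger than the mean of the other subsets by 1.05 (log2, adjusted p = 0.0466, edgeR quasi-likelihood test).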

How the data were processed

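The 9 libraries hold RNA of 3 subsets from each of 3 sorts, sequenced with a stranded mRNA kit and single reads of 75 bases. The authors deposited 1 table of whole-number read counts per gene. Per the labels' processing notes, STAR, SAMtools, MultiQC and featureCounts were used on mm10. Versions, annotation release, strand setting and the treatment of reads with several matches are not given in the sources used here.

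Counts were used as deposited. Genes were kept with edgeR's filterByExpr (minimum count 10, subset as group), scaled with TMM factors and tested with edgeR's quasi-likelihood test and Benjamini-Hochberg adjustment over all 13819 genes kept, at 0.05. The fit for all subsets had the subset and sort 3 or not as terms. Shifts within a subset and differences between them came from a fit with sort 3 nested in subset (3 residual degrees of freedom). Neither fit has a term for sort 1 against sort 2. Same-numbered libraries share a sort number and date in their column names, and the alternative that pairs them, with the sort number at 3 levels, is the replicate block. Other alternatives were other scalings, filters and tools, thinning to the smallest total, a GC content and length correction, counts summed per sort and leaving libraries out. Quality weights were added after the data were seen. The test scripts were checked on simulated data.

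Named genes were the 12 largest rises and falls among genes shifted in all 3 subsets with a mean count of at least 100 on the higher side, the 4 largest own rises and falls of each subset, and up to 4 called members of each list with the largest change, plus members needed to show a small count. Gene lists, promoter motifs and the choice of libraries were made with earlier results of these data known. Transcript lengths are from GENCODE M21 on GRCm38 (longest transcript, 13683 genes, 99%) and promoters from RefSeq on GRCm38.p6. R 4.3.3, edgeR 4.0.16, limma 3.58.1, DESeq2 1.42.0 and Python 3.11.15 were used.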

Additional observations from a re-analysis of the deposited data

Results flagged for a closer look

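A difference in the sort 3 shift between subsets was called in 666 genes by the interaction test of edgeR's quasi-likelihood fit, in which each subset has 1 library of sort 3. Among the genes named in the text, 17 had a shift in 1 subset that differed from the mean shift of the other subsets, 11 for cDC2, 14 for pDC and 0 for cDC1. A gene can appear for both. For cDC2 the adjusted p was 0.0466 for Tg, 1810034E14Rik, Fads2, Hook2, Slc25a29, Ftx, Ttll1, Zfp521, Tbc1d25, D3Ertd254e and Bfsp2. For pDC the adjusted p was 0.0232 for Tg, Cit, Tbc1d25, D3Ertd254e, Bfsp2, Gm20204 and Rsad2. The other pDC values were 0.0338 for Gm13841, 0.0422 for Fads2, 0.0278 for Slc25a29, 0.0367 for Ftx, 0.0477 for Ttll1, 0.0345 for Gm21781 and 0.0268 for Serpina3f. In a contrast against the mean of the others, a large change in 1 subset also enters the contrast of the remaining subsets with the opposite sign. Tbc1d25, D3Ertd254e and Bfsp2, with 0 counts in the sort 3 pDC library, pass for cDC2 with positive log2 differences, and Slc25a29, with 0 counts in the sort 3 cDC2 library, passes for pDC with a positive one. Without any 1 of the 6 libraries of sorts 1 and 2, the number of genes whose shift differed among the subsets was 0.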

How the results depend on the processing

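For sort 3 against sorts 1 and 2 in all subsets, the 3206 calls became 522 with a log2 change of 1 or more also required, 1662 with counts summed per sort, 1941 with sample quality weights (chosen after seeing the data), and 1302 to 2924 with libraries left out. They were 3185 with the replicate block, whose only lost call among the named genes was Rel, and 3088 to 3996 with the other scalings, filters and tools. Genes higher became 147, 572 and 964 and genes lower 375, 1090 and 977 in the first 3 settings, and 480 to 1296 and 822 to 1711 with libraries left out. The 3095 genes shifted in all 3 subsets became 506, 1828 with quality weights, and 1302 to 2775. Sort 2 against sort 1 had 0 calls, 141 with DESeq2, 144 with limma-voom, 24 with no filter and 0 to 13 with libraries left out. Within cDC1, the 1615 calls became 531 with the fold change limit, 1076 with limma-voom, 2476 with no filter and 0 to 1949 with libraries left out. Within cDC2, 1876 became 859, 1233 with DESeq2, 3246 with no filter and 0 to 2455. Within pDC, 4024 became 1823 with the fold change limit and 2997 to 3758. The 666 genes whose shift differed among subsets became 415 with library size only, 0 with limma-voom, with at least 10 counts in every library and with thinned counts, 2695 with no filter, 1110 with the GC content and length trend taken off, and 0 with libraries left out. Genes that differed in cDC1 (0) became 56 with DESeq2 and 913 with no filter. Those in cDC2 (263) became 0 with library size only, limma-voom, at least 10 counts and thinning, 1357 with no filter, 581 with the trend off and 0 with libraries left out. Those in pDC (1059) became 602 with DESeq2, 2125 with no filter, 499 with at least 10 counts, 703 with thinning and 0 to 722. Own shifts in cDC1 (0) became 16 with DESeq2 and 244 with no filter. In cDC2 (152) they became 78 with DESeq2, 616 with no filter, 312 with the trend off, and 0 with library size only, limma-voom, at least 10 counts, thinning and libraries left out. In pDC (857) they became 474 with DESeq2, 1616 with no filter, 424 with at least 10 counts and 0 to 603. Tbc1d4 turned from -0.25 to 0.0029 with the trend taken off. The causes were not tested. The median log2 difference of all genes was -0.0145 with TMM, -0.0529 with library size only, 0.0239 with upper quartile factors and 0.012 with DESeq2 size factors. Of 89 named calls, 57 to 83 passed with libraries left out, 59 with counts summed per sort and 62 with quality weights. Of 37 list medians, 13 moved by more than 1 SD of the shifts of the 3 subsets without sort 1, 16 without sort 2 and 4 to 6 with another scaling, thinning or the trend taken off. Counting error limits genes of few counts, and the comparison rests on 3 sorts.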
